A study of Rattus norvegicus with 6 samples.

Results

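Genes that were close to silent in wild-type rat macrophages and present in Cyp2j4 knockout macrophages are described here. They were chosen from the counts themselves: a gene belongs to the set when its mean over the 3 wild-type libraries was under 0.5 CPM (a gene's count divided by the library's total gene count, multiplied by 1000000) and when it reached at least 1 CPM in both knockout replicate 1 and knockout replicate 3. Of the 29516 genes in the table, 62 met this rule. A further 5 genes were set aside in advance by their IDs, of which 1 met both limits. The rule set no limit on knockout replicate 2, so its values are the only knockout values not bounded by the rule. The rule was set with earlier results of these data known, so leaving out this library cannot be taken as blind to its values. The wild-type and other knockout values were fixed in part by the choice and are given as a description; where calls of the genotype comparison over all genes are counted for the members, nothing is read from them.

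The cells were macrophages grown from bone marrow of Wistar-Kyoto (WKY) rats, which the labels call macrophages and the protocols bone marrow-derived macrophages. The 3 wild-type and 3 Cyp2j4-/- libraries share that strain and cell type, and no treatment is labelled. The way the knockout was made, the age and sex of the rats and whether each library is a separate animal or culture are not stated in the labels, beyond an n of 3 per genotype. The counts carry Ensembl IDs alone, and the RefSeq table at hand matched 0 of them. The members are therefore not given by name or function here, and neither the knockout of Cyp2j4 nor the macrophage identity of the cells was checked against expression.

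Cyp2j4 encodes a cytochrome P450 epoxygenase of rat. Epoxygenases convert arachidonic acid, a fatty acid released from membranes, to epoxyeicosatrienoic acids, lipid mediators that soluble epoxide hydrolase turns into less active diols. Macrophages grown from marrow are a standard model of tissue macrophages, and the series title places the comparison in the context of a pro-fibrotic expression pattern. In bulk RNA from such a culture, fewer cells of a type and less RNA per cell cannot be told apart.

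Gene counts per library ranged from 21590429 to 33916549, with every knockout library shallower than every wild-type library. A floor of 3 counts therefore lay between 0.0885 and 0.139 CPM. Knockout replicate 2 stood apart: across expressed genes its Spearman correlation with knockout replicates 1 and 3 was 0.983 and 0.985, while those libraries correlated at 0.994 with each other. It correlated at 0.993 with wild type replicate 1, closer than with either library of its own genotype. Knockout replicate 1 also correlated slightly closer with wild type replicate 3 (0.9947) than with knockout replicate 3 (0.9945). Lying closest to a wild-type library was therefore not particular to knockout replicate 2. Results that involve the knockout libraries are therefore given library by library.

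The 62 genes together were a trace of each transcriptome, and their summed level varied among the knockout libraries as well as between the genotypes. In wild type the members summed to 14.1, 12.0 and 17.4 CPM in replicates 1 to 3. In knockout they summed to 138 CPM in replicate 1, 47.9 CPM in replicate 2 and 235.0 CPM in replicate 3. All 3 knockout sums lay above all 3 wild-type sums, and the lowest of them, in the library that the rule did not use, was 3.31 times the wild-type mean. Knockout replicates 1 and 3 stood at 9.50 and 16.2 times that mean, as the rule favours. The low wild-type values were part of the choice too, which favours a higher sum in any other library, knockout replicate 2 included. How much of its excess this accounts for was not tested. The exact Poisson 95% interval of the sum in knockout replicate 2 was 45.2 to 50.8 CPM, and the highest wild-type interval ended at 18.9 CPM. These intervals cover counting error only. Even in knockout replicate 3 the members held only 0.0235% of the gene counts.

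**Figure D1:**
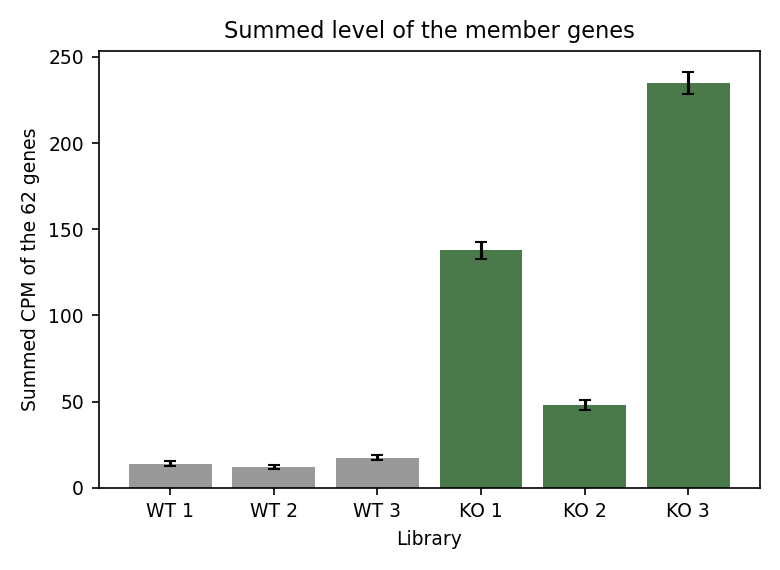
Summed level of the 62 genes (CPM) in each library, wild type (WT, grey) and Cyp2j4 knockout (KO, green), with exact Poisson 95% intervals for counting error. Knockout replicate 2, at 47.9 CPM, lies between the wild-type libraries (12.0 to 17.4 CPM) and the other knockout libraries (138 and 235.0 CPM). The choice of genes used the values of every library except knockout replicate 2.

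No single gene carried the sums. The highest member held 5.31% of the summed level in knockout replicates 1 and 3, and the highest 5 held 20.8%. By their mean in those libraries, 28 members lay under 2 CPM, 25 between 2 and 5 CPM and 9 above 5 CPM. Wild-type means ran from 0.0100 to 0.484 CPM with a median of 0.219, and 36 members lay under 0.25 CPM. No member was without any count in wild type. A member had from 1 to 47 counts in the wild-type libraries together, with 2 members at 3 counts or fewer, and from 58 to 479 counts in the knockout libraries together. In 13 members at least 1 wild-type library reached 0.5 CPM, the highest at 0.737 CPM.

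ENSRNOG00000000805 had the highest mean level in knockout replicates 1 and 3 of the members. Its level was 0.241, 0.440 and 0.383 CPM in wild type replicates 1 to 3 and 7.04, 1.92 and 12.8 CPM in knockout replicates 1 to 3. All knockout libraries lay above all wild-type libraries, with knockout replicate 2 nearest to them. Behind these values stood 8, 12 and 13 wild-type counts, and knockout counts of 152, 46 and 281. The means were 0.355 ± 0.103 CPM and 7.24 ± 5.42 CPM (SD, n = 3), with most of the spread in knockout. Knockout replicate 2 stood at 0.194 of the mean of the other knockout libraries (exact 95% interval from the counts 0.140 to 0.263).

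Most members shared the order of the knockout libraries seen in this gene. Knockout replicate 2 was the lowest knockout library in 59 of the 62 members, and knockout replicate 3 exceeded knockout replicate 1 in 54. The rule asked for high values in replicates 1 and 3 only, which favours the lowest place for replicate 2. Medians over the members were 1.64 CPM in knockout replicate 1, 0.585 CPM in replicate 2 and 2.63 CPM in replicate 3, against 0.210, 0.165 and 0.251 CPM in wild type replicates 1 to 3. The order of knockout replicates 1 and 3 was not set by the rule, which asked the same of both. Knockout replicate 3 was the higher in 87.1% of members, and in 40.5% of the 2909 other genes of the same mean level in these 2 libraries. The median ratio of replicate 1 to replicate 3 was 0.638 over the members and 1.05 over those other genes.

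**Figure D2:**
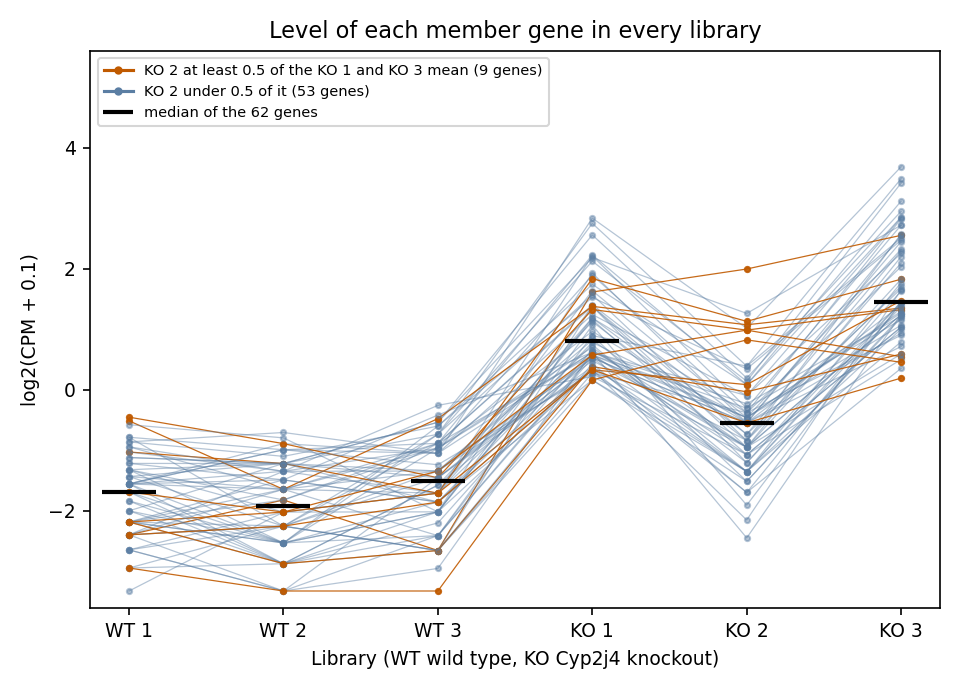
Level of each of the 62 genes in every library as log2(CPM + 0.1), with lines joining the values of a gene and black bars at the median. The 53 genes in blue lay in knockout replicate 2 under 0.5 times the mean of knockout replicates 1 and 3; the 9 in orange did not.

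The order of the wild-type libraries was not set by the rule either, which used only their mean. Wild type replicate 3 was the highest wild-type library in 30 of the 62 members (48.4%) and replicate 2 the lowest in 31 (50.0%). Among the 1508 other genes with a wild-type mean of 0.1 to 0.5 CPM, the shares were 31.0% and 32.6%. Replicate 1 was the highest in 19 members and replicate 2 in 13. The median member had 7, 4.5 and 8.5 counts in wild type replicates 1 to 3, so the order within a single gene is not readable at this depth.

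Knockout replicate 2 lay above all 3 wild-type libraries in 53 of the 62 members (85.5%) and below all of them in 0. The members were read from the same libraries and are not independent, so no interval is given for this share. In the remaining 9 it fell within the wild-type range. It lay above all 3 wild-type libraries in 24.7% of all genes under 0.5 CPM in wild type with a count in any library, in 24.0% of those between 0.1 and 0.5 CPM, and in 21.8% of all genes with a count. The members' low wild-type values were part of the choice, which favours a higher value in any other library. The median ratio of knockout replicate 2 to the wild-type mean was 3.03, and 45 members reached at least 2 times that mean while 3 lay under it. As no wild-type library exceeded 0.737 CPM in any member, knockout replicates 1 and 3 lay above all of them throughout. The same 53 genes therefore had all knockout libraries above all wild-type libraries. Among all genes with a count, which were not chosen by their values, 5.31% had this separation. The rule favoured it in knockout replicates 1 and 3 of every member, so these shares are not comparable.

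Relative to the knockout libraries used by the rule, knockout replicate 2 was low in most members but not in all. Its median ratio to their mean was 0.192, with quartiles of 0.141 and 0.330. It lay under 0.25 of that mean in 38 members, between 0.25 and 0.5 in 15 and at 0.5 or more in 9. Choosing genes for high values in the other libraries favours a ratio under 1. Over the 2909 other genes of the same level the median ratio was 0.897, and 8.87% lay under 0.5, against 85.5% of the members.

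**Figure D3:**
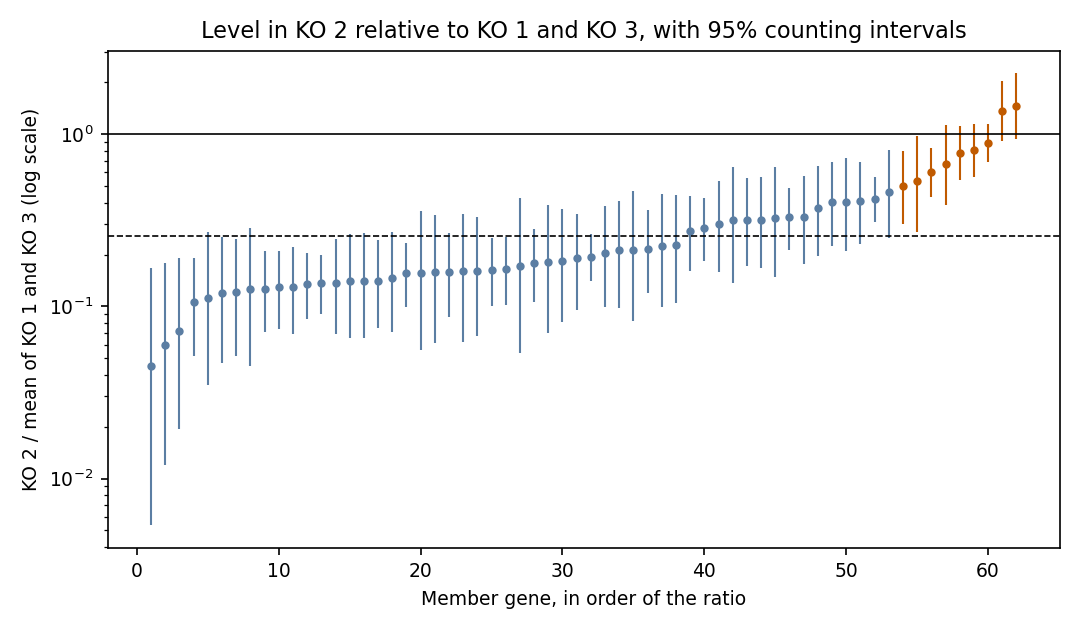
Ratio of the level in knockout replicate 2 to the mean of knockout replicates 1 and 3 for each of the 62 genes (log scale), in order, with exact 95% counting intervals. The solid line marks equal levels and the dashed line the ratio of the summed levels, 0.257; the 9 genes in orange lie at 0.501 to 1.46.

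The ratios between knockout libraries can be set beside their counting error gene by gene. The rule asked at least 1 CPM of both replicates 1 and 3, which narrows the range of their ratio. It set no limit on replicate 2, so the ratios are not compared with each other. Over summed counts replicate 1 stood at 0.586 of replicate 3 (exact 95% interval 0.560 to 0.614), and the counting interval of the single gene held that value in 47 of 62 members. For replicate 2 against the other libraries, the ratio over summed counts was 0.257 (0.241 to 0.273). The single gene's interval held it in 36 members, lay above it in 10 and below it in 16. The interval held 1 in 6 members, lay below 1 in 56 and above 1 in 0.

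**Figure D4:**
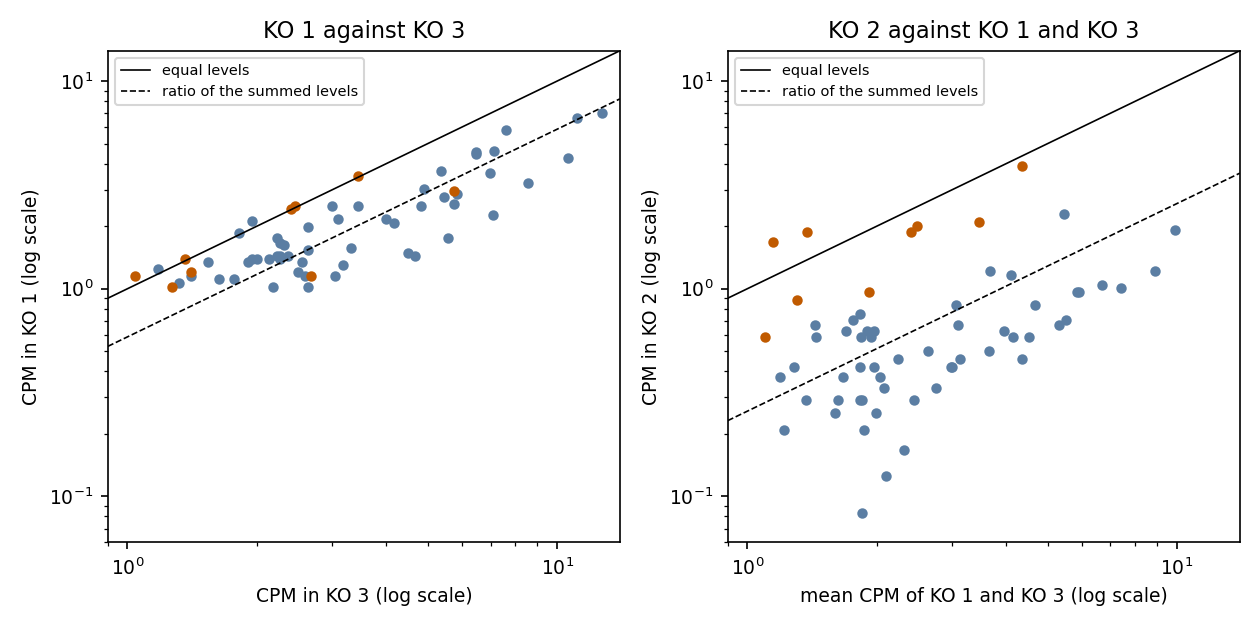
Left, level in knockout replicate 1 against replicate 3, and right, level in knockout replicate 2 against the mean of replicates 1 and 3, for the 62 genes (CPM, log scales), with lines for equal levels and for the ratio of the summed levels. The 9 genes in orange are those with a ratio of at least 0.5 in the right panel, which run from 0.501 to 1.46.

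The 9 members with a ratio of at least 0.5 were not simply those with the highest level in knockout replicate 2, where they ran from 0.585 to 3.89 CPM and the other 53 from 0.0836 to 2.30 CPM. The 9 summed to 17.3, 15.8 and 21.8 CPM in knockout replicates 1 to 3 and to 2.29, 1.61 and 1.89 CPM in wild type. The other 53 summed to 121, 32.1 and 213 CPM in knockout and to 11.8, 10.3 and 15.5 CPM in wild type. The split by the ratio fixes how the sums in replicate 2 compare with those in replicates 1 and 3. Knockout replicate 3 exceeded replicate 1 in 4 of the 9 and in 50 of the 53, and the median ratio of replicate 1 to replicate 3 was 1.00 and 0.614. A high value in replicate 3 lowers both this ratio and the ratio that made the split, so the sets are not independent of it. They were made after the values were seen, and no test of them was run.

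ENSRNOG00000043195, the member with the highest level in knockout replicate 2 and singled out for that after its values were seen, was among these 9. It stood at 0.0902, 0.183 and 0.0590 CPM in wild type replicates 1 to 3 and at 2.96, 3.89 and 5.76 CPM in knockout replicates 1 to 3. Its groups did not overlap, and the lowest knockout library had 64 counts while the wild-type libraries together had 10. The means were 0.111 ± 0.0648 CPM and 4.21 ± 1.43 CPM (SD, n = 3), a 37.9-fold difference. Knockout replicate 2 was at 0.891 of the mean of the other knockout libraries (0.685 to 1.14).

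In 2 further members of these 9, knockout replicate 2 was the highest library of all. The first, rank 61 of 62 by level in knockout replicates 1 and 3, had 22, 40 and 28 counts in knockout replicates 1 to 3 and 1, 0 and 0 in wild type. With 1 wild-type count in all, its ratio of knockout to wild type of 132 had a counting interval from 22.0 to 5024. The second, rank 55, had 30, 45 and 30 counts in knockout and 7, 4 and 10 in wild type, a 7.10-fold difference between mean levels. At the other end, the member of rank 42 had 31, 2 and 50 counts in knockout replicates 1 to 3 and 2, 0 and 1 in wild type, so that 2 counts in knockout replicate 2 could not be told from its wild-type level at this depth.

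Genes on either side of the limits lay close to each other. The 3 members nearest to the wild-type limit had wild-type means of 0.484, 0.480 and 0.459 CPM, and the nearest genes outside it 0.515, 0.517 and 0.519 CPM. The 3 members nearest to the knockout limit each had 1.02 CPM in the lower of knockout replicates 1 and 3, and the nearest outside it 0.973 CPM.

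Fitted over all genes, the comparison of genotypes called few of the members. The filter on low counts kept 48 of the 62. As every member is high in 2 knockout libraries by the rule, and the filter asks for counts in 3 libraries, being kept depended on knockout replicate 2 or a wild-type library, and the 48 do not stand for all members. Of the 48, 5 were called higher in knockout (edgeR quasi-likelihood test, Benjamini-Hochberg adjusted p from 0.0105 to 0.0309), where 0.112% of all 11645 genes tested were. The rule used this contrast, so nothing is read from that count. ENSRNOG00000043195 was among the called members (edgeR adjusted p 0.0105) and ENSRNOG00000000805 was not (0.0989). For the latter the adjusted p was 0.317 with limma-voom and 3.7e-11 with DESeq2. Fitted log2 fold changes of the 48 ran from 0.92 to 6.50 with a median of 3.26, against -0.01 over all genes. An unadjusted p under 0.05, which the choice of genes favours, was found in 47 of the 48 and in 7.65% of all genes tested in either direction. All 5 called members were among the 9 with a ratio of at least 0.5, at 0.604 to 1.46. Knockout libraries that lie closer together favour a call, and the 9 were set apart after the values were seen. Nothing is therefore read from this overlap.

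The calls depended on single libraries. Without knockout replicate 2, 61 of 62 members tested were called (1.74% of all genes tested), in a fit whose knockout libraries are those the rule asked to be high. Without wild type replicate 1, 2 or 3, 0 of 62 were called by edgeR, although 61, 61 and 60 of them had an unadjusted p under 0.05; of all genes tested, 0.0256%, 0.0% and 0.0% were called higher. Other tools were not run on these libraries. Without knockout replicate 1 the number was 2 of 49 (0.0424% of all genes tested), and without knockout replicate 3 it was 1 of 49 (0.00847%). With all libraries DESeq2 called 55 of 62 members (1.09% of all genes tested), limma-voom 5 of 48 (0.112%), edgeR with no filter on low counts 21 of 62 (0.315%), and edgeR with the replicate number as a block 16 of 48 (0.223%).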

How the data were processed

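The authors deposited raw counts of reads per gene for 6 libraries. Per the submitters' processing notes, TopHat2, HTSeq and build rn4 were used. Their versions, the annotation release and the strand setting are not stated there. Reads of antisense transcripts may therefore be counted for the gene they overlap. Reads listed as ambiguous between genes, 0.799% to 0.943% of the listed reads, were counted for no gene. Columns were assigned by sample description, and 0 belonged to other samples. The 5 HTSeq summary lines, 18.7% to 19.6% of the listed reads, were kept out of all totals.

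CPM used column sums of gene rows. Genotypes were compared over all genes with edgeR 4.0.16 in R 4.3.3 (filterByExpr, TMM, quasi-likelihood F test, adjusted p under 0.05); DESeq2 1.42.0 and limma 3.58.1 (voom) were alternatives. On simulated data for this comparison (11645 genes), edgeR recovered 84% of 2-fold and 99% of 4-fold changes with 7 false calls among 190. DESeq2 made 31 false calls among 217. In the real libraries edgeR called only 5 of the 48 members tested, whose median fitted log2 fold change was 3.26. The simulated shares are therefore not read as the power to call members. No library was a copy of another (lowest chi-square per degree of freedom between any pair 9.85, over genes with 20 or more counts). Reads carry no molecular identifiers. P-values reflect only how these libraries varied, which may be technical.

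The members and lists were chosen with earlier results of these data known. The planned gene lists, marker lists and promoter motifs were not used, as no names were at hand. Without names the rule for genes given individually was the highest members by ID; of these only the first is printed, with 1 more chosen after its values were seen.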

Additional observations from a re-analysis of the deposited data

How the results depend on the processing

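The number of members followed the limits: 36 at a wild-type mean under 0.25 CPM and 137 under 1 CPM, 25 with at least 2 CPM in knockout replicates 1 and 3 and 173 with at least 0.5 CPM, and 13 with 1 CPM asked of all 3 knockout libraries. Chosen after seeing the data, asking it of knockout replicates 1 and 2 gave 13 genes, of replicates 2 and 3 gave 14, and the rule with the genotypes swapped gave 1. Leaving out 1 library gave 61 to 126 genes, the latter without knockout replicate 1. TMM scaling gave 59, all of them members. The share of members above every wild-type library in knockout replicate 2 became 69.3%, 96.0% and 65.9% with the limits of 1 CPM in wild type and of 2 and 0.5 CPM in knockout, and 76.2% to 91.0% with 1 library left out. The median ratio of that library to the other knockout libraries became 0.206 with TMM scaling, 0.166 and 0.425 with wild-type limits of 0.25 and 1 CPM, 0.158 and 0.316 with knockout limits of 2 and 0.5 CPM, and 0.194 to 0.212 with a wild-type library left out. It cannot be formed without a knockout library. The cause of these shifts was not tested.

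Over all genes 13 were called higher and 1 lower. These numbers were 54 and 5 with no filter on low counts, 178 and 18 with DESeq2, 0 to 207 and 1 to 43 with 1 library left out, and 26 and 1 with the replicate number as a block. The members called were 21, 55, 0 to 61 and 16 in the same order. The replicate block is given for completeness: residuals of same-numbered libraries correlated at -0.44, -0.14 and 0.15, so the numbers were not taken as pairing the libraries. The highest correlation, 0.45, was between wild type replicate 1 and knockout replicate 2. Only knockout replicate 3 correlated best with the library of its own number. With the other scaling 6 of 48 members tested were called higher, and 14 of all 11645 genes tested. The 1 CPM filter kept only 13 members, of which 4 were called, beside 11 of 10747 genes. With limma-voom the numbers were 5 of 48 members and 13 of 11645 genes. Depth limits what can be said of genes with fewer than 3 counts in a library.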

Other observations

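Genes just short of the knockout limit summed to the same order of knockout libraries. Under 0.5 CPM in wild type, 111 genes had between 0.5 and 1 CPM in the lower of knockout replicates 1 and 3. They summed to 26.6, 29.2 and 30.01 CPM in wild type replicates 1 to 3 and to 77.5, 43.4 and 117 CPM in knockout replicates 1 to 3. Knockout replicate 3 exceeded replicate 1 in 85 of the 111, replicate 2 was the lowest knockout library in 93, and replicate 2 lay above all wild-type libraries in 61. Among all genes of 0.1 to 0.5 CPM in wild type, replicate 2 lay above all wild-type libraries in 24.0%. The median ratio of replicate 2 to the mean of replicates 1 and 3 was 0.439 over the 111, against 0.192 over the members. It was 0.5 or more in 48 of the 111. The 111 genes were also selected by their values, and no test was run.

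Among genes under 0.5 CPM in wild type, 70 reached 1 CPM in knockout replicate 1, 19 in replicate 2 and 127 in replicate 3. Of those that did so in replicate 1 or 3, 63 did in both, 64 in replicate 3 alone and 7 in replicate 1 alone. In replicate 2, 5 genes outside the set and its 5 set-aside genes reached that level, 4 of them under 1 CPM in both other knockout libraries.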
